A study of Mus musculus with 3 samples.

Results

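Rasef, Arhgap30, Armh4, Cyp11a1, Il17rb, Il15 and Rab27b are 7 of the 32546 mouse genes over which open chromatin was counted, and they were listed because their accessibility varied most between groups of long-term hematopoietic stem cells (LT-HSCs) formed on chromatin alone. The values that chose them were their ATAC fragments in those groups, so all levels between groups of cells formed on chromatin are given below as a description. The counts of antibody tags on the same cells were not used to choose them, but the fragments compared by tag count are the same ones. LT-HSCs, the blood-forming cells with lasting repopulating capacity, were sorted by FACS after c-Kit enrichment of bone marrow from 24-month-old wild-type females. In the DOGMA-seq assay used, RNA, open chromatin (ATAC) and oligonucleotide tags on antibodies are read out of each single cell. All cells came from 1 pool and carried the same genotype, age and sex, and none was treated. Each assay gave 1 library, so groups of cells within that pool have no replicate. Differences are therefore given with 95% intervals that cover counting error only, and no test was run. The number of mice in the pool was not given in the sources used here.

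Chromatin becomes accessible where nucleosomes are moved or removed, usually at promoters and at enhancers bound by transcription factors, and the ATAC transposase cuts DNA there. In stem cells a gene can be open before it is transcribed, and such openings can differ between cells of one sorted population. CD61 (integrin beta 3, a subunit of the platelet fibrinogen receptor) and CD357 (GITR, a receptor of the TNF receptor family) were 2 of the 12 antibodies of the panel. In the study, high CD61 with low CD357 was part of a mark of platelet-biased HSCs that also asked for high CD274 and low CD27, and the opposite of each was the mark of multi-lineage HSCs. The joint comparison below uses CD61 and CD357 alone.

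The members have different roles. Rasef (also called Rab45) and Rab27b are GTPases of the Rab family, which direct membrane traffic, and Rab27b takes part in granule secretion from platelets. Arhgap30 switches off small GTPases that control the actin cytoskeleton. Armh4 is a transmembrane protein. Cyp11a1 is the mitochondrial enzyme that cleaves the side chain of cholesterol, the first step of steroid synthesis. Il15 is a cytokine that sustains natural killer and memory T cells, and Il17rb is a receptor subunit for interleukin 25.

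The sequences below are of open sites and promoters described further on, not all of which differed between cells. For Rasef, Arhgap30 and Cyp11a1 they are the 200 bases at the open site with most fragments in the gene. For Arhgap30, Armh4 and Il17rb they are the bases before the gene start, where those genes have an open promoter. All are of the mouse build mm10 and are written 5′ to 3′ on the strand of the gene. Sites were read from the RefSeq genome of that build and promoters from the RefSeq promoter table, which held an entry for 5 of the 7 members. The Rasef site lay at chr4:73788426-73788625 (minus strand), the Arhgap30 site at chr1:171390276-171390475 (plus) and the Cyp11a1 site at chr9:58014471-58014670 (plus). The first 2 stretches are centred on their sites, and the Cyp11a1 stretch lies inside its site but is centred 55 bp upstream of the site's centre. The promoters lay at chr1:171388710-171388953 for Arhgap30 (plus), chr14:49783384-49783633 for Armh4 (minus) and chr14:30008897-30009022 for Il17rb (minus). Capitals mark every match, on either strand, to 6 motifs: AGATAA or TGATAA for GATA factors, GGAAGT for ETS factors, TGTGGT for RUNX factors, GGGCGG for SP and KLF factors, TGACAG for MEIS factors and TGANTCA for AP-1.
Rasef site: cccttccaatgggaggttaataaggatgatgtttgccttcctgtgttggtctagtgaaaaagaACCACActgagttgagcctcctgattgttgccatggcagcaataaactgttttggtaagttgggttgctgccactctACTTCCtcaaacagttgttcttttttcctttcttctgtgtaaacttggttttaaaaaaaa
Arhgap30 site: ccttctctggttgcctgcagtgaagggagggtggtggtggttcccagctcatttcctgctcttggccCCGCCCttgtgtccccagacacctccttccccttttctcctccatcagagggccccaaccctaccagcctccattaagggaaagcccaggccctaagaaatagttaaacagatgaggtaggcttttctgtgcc
Cyp11a1 site: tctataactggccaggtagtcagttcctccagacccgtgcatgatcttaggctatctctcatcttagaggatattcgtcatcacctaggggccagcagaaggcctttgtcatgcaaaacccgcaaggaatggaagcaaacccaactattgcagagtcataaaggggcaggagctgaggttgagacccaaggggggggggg
Arhgap30 promoter: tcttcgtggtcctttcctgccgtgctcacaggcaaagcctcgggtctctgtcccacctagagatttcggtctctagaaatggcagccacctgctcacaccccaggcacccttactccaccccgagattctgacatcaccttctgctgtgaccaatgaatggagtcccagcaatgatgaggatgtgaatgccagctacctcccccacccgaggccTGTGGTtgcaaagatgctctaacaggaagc
Armh4 promoter: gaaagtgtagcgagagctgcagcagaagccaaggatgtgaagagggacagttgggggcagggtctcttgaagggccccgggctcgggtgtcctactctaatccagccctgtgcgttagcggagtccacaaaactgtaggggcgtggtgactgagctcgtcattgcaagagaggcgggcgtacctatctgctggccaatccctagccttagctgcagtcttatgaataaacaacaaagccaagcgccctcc
Il17rb promoter: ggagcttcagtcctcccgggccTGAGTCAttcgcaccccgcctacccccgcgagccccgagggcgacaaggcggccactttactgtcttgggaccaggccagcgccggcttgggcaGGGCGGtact

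No matches overlapped. The Rasef site held 1 RUNX and 1 ETS match, letters found in 21.0% and 24.9% of all 95854 open sites at the same length. The Arhgap30 site held 1 SP and KLF match (17.0% of sites), and its promoter 1 RUNX match (13.8% of the 32851 promoters of the table at the same length of 244 bases). The Il17rb promoter held 1 SP and KLF match (27.0% of promoters at 126 bases) and 1 AP-1 match (3.62%). None of the 6 motifs was found in the 200 bases printed for Cyp11a1 or in the Armh4 promoter. A match is a run of letters and says nothing of binding.

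Cells were kept if the antibody table held them with at least 10 tags in all, which left 3629 cells with 38498362 nuclear fragments and a median of 10287 fragments per cell. A median of 29 antibody tags per cell was read. Excess overlaps, sites covered by 3 or more fragments more often than the mean over all cells predicts, were found in 274 cells (7.55%), and these cells were kept. Cell depth did not enter that prediction, and these cells were deeper, with a median of 17894 fragments against 10045 in other cells. Of the HSC markers, 10 of 10 had at least 200 fragments, at 0.660 to 5.81 fragments per 1000000 nuclear fragments (CPM) and kb of gene, with a median of 1.35. Markers of other lineages were at a median of 3.92 for megakaryocytes, 0.973 for erythroid cells, 0.455 for myeloid cells, 0.164 for mast cells and basophils, 0.514 for B cells and 0.321 for T cells and innate lymphoid cells, and no marker of any list was at 0. The median over 20515 genes with at least 200 fragments was 1.36.

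The counted stretch was the gene body with 2 kb before its start. Il15 and Rab27b had most fragments, at 55.1 CPM (95% interval 52.8 to 57.5) and 55.8 (53.5 to 58.2), and the difference between them was within their intervals. Arhgap30 had 32.5 (30.8 to 34.4) and Cyp11a1 16.1 (14.8 to 17.4). Il17rb at 12.8 (11.7 to 13.9), Armh4 at 12.1 (11.1 to 13.3) and Rasef at 10.9 (9.89 to 12.0) had overlapping intervals. Genes differ in length, and per kb the order changed: Arhgap30 at 1.39 CPM per kb stood near the median of all genes, followed by Il17rb (0.864), Il15 (0.749), Cyp11a1 (0.710), Rab27b (0.339), Rasef (0.139) and Armh4 (0.111). Rasef and Armh4 were at percentile 4.02 and 3.01 of the genes with at least 200 fragments.

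Most cells held no fragment at a given member. Rasef was open, with at least 1 fragment, in 354 cells (9.75%, exact binomial interval 8.81 to 10.8%), Armh4 in 397 (10.9%), Il17rb in 412 (11.4%), Cyp11a1 in 462 (12.7%), Arhgap30 in 960 (26.5%), Il15 in 1469 (40.5%) and Rab27b in 1491 (41.1%). A closed cell may be one in which the site was not cut or not read at this depth. Cells with 2 or more fragments at the gene were counted against the number expected from each cell's depth. For Rasef this was 59 cells against 24.6, a ratio of 2.40 (1.83 to 3.10). The ratio was 2.26 for Cyp11a1, 2.00 for Armh4 and 1.94 for Il17rb, all above the 95th percentile of 1.86 over 12348 genes with 400 to 2200 fragments. Rasef and these genes had 420 to 618 fragments, near the low end of that range, and no percentile at matched counts was taken. Arhgap30 at 1.21 was near the median of 1.23, and Il15 at 1.098 and Rab27b at 1.05 were lower. The members were chosen on these cells, so the ratios are a description.

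Accessibility by CD357 compared the members between cells with more and with fewer tags of that marker. The tags had no part in choosing the members, but the same fragments did. The chromatin clusters described below also differ in mean CD357 count, at 3.63 in cluster 1 and 2.70 in cluster 2. Differences by CD357, by CD61 and by both are therefore not independent of the choice. The shares of all genes beside them, and the members' ranks among all genes, are no test. Rasef was lower and Arhgap30 higher in CD357-high cells. The 1365 cells above the median of 3 tags were compared with the 2264 cells at or below it, and a gene was taken as past the fold where the log2 ratio was 0.25 or more in size. Rasef had 138 fragments in CD357-high cells, or 9.29 CPM, and 282 in CD357-low cells, or 11.9 CPM. Its log2 ratio was -0.36 (-0.66 to -0.06). Arhgap30 had 537 fragments, or 36.2 CPM, against 716, or 30.3 CPM, with a log2 ratio of 0.26 (0.09 to 0.42). Only for these 2 genes and Cyp11a1 did the interval leave out 0. The intervals here and below take fragments as independent. Cells with 2 or more fragments at Rasef and Cyp11a1 were more frequent than depth predicts, at ratios of 2.40 and 2.26. The intervals may therefore be too narrow, and that of Cyp11a1 began at 0.003.

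Armh4 stood at 10.8 against 12.9 CPM, a log2 ratio of -0.25 (-0.54 to 0.02), and its interval held 0. Cyp11a1 stood at 17.7 against 15.01, with a log2 ratio of 0.24 (0.003 to 0.47), just under the fold. Il17rb at -0.15 (-0.43 to 0.11), Il15 at -0.03 (-0.16 to 0.10) and Rab27b at -0.01 (-0.14 to 0.11) were not detectably different. Thus 3 of 7 members were past the fold, while 4.30% of genes with at least 200 fragments were, and 2.97% of genes with 400 to 2200 fragments, the range of the members. Rasef, Armh4, Il17rb and Cyp11a1, at 420 to 618 fragments, lay near the low end of that range, where counting error is larger. No share or rank at matched counts was taken, here or in the comparisons below. With cells thinned to 6000 fragments, Rasef at -0.18 and Armh4 at -0.14 were under the fold, and Armh4 was so also with at least 20 tags and with the centred log ratio (-0.21 in both), while Arhgap30 was past it in all 11 alternatives run (0.26 to 0.59).

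By CD61 Rasef stood the other way, higher in cells with more tags. It had 227 fragments, or 12.4 CPM, in the 1695 cells above the median of 3 CD61 tags, and 193, or 9.55 CPM, in the 1934 other cells. Its log2 ratio was 0.38 (0.09 to 0.66), the 79th highest of 20515 genes. Armh4 stood at 13.2 against 11.1, a log2 ratio of 0.248 (-0.02 to 0.52) that was just under the fold. Among the 363 cells with at least 50 tags in all, Rasef by CD61 was at -0.10 (-1.02 to 0.97) and Armh4 at -0.56 (-1.51 to 0.50), both opposite in sign to the values over all cells. Over all cells Il17rb was at 0.16 (-0.10 to 0.42), Arhgap30 at -0.12 (-0.28 to 0.05), Cyp11a1 at -0.12 (-0.35 to 0.11), Rab27b at -0.05 (-0.18 to 0.07) and Il15 at 0.00 (-0.13 to 0.12). So 1 of 7 members was past the fold, against 3.67% of genes with at least 200 fragments and 2.43% of those with 400 to 2200.

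**Figure D1:**
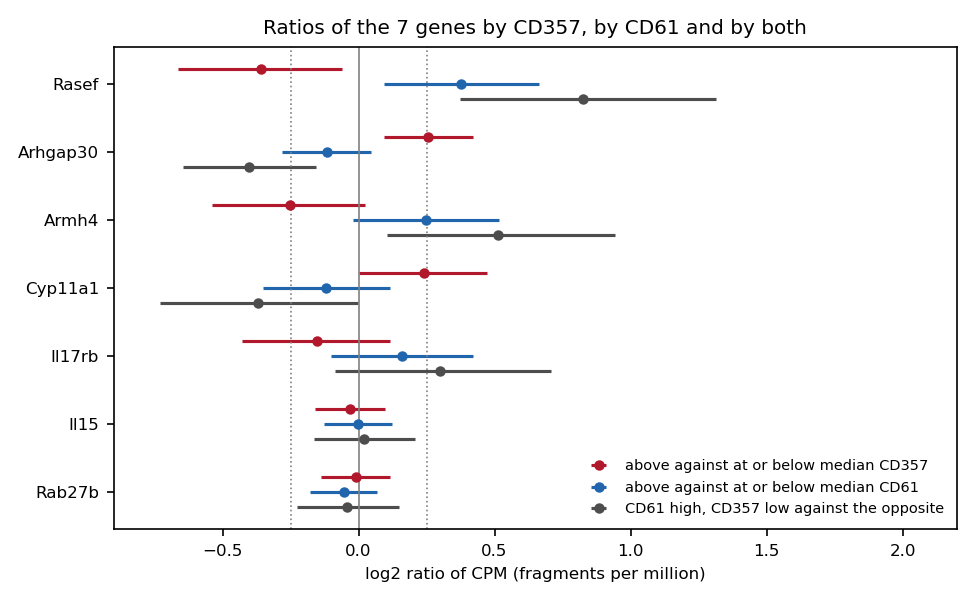
Log2 ratios of CPM (x axis) of the 7 genes (y axis), between cells above and at or below the median CD357 count (red), the same for CD61 (blue), and cells high for CD61 and low for CD357 against the opposite (grey). Lines are 95% intervals of counting error and dotted lines mark 0.25. Rasef runs from -0.36 by CD357 to 0.83 by both, Arhgap30 from 0.26 to -0.40, and Il15 and Rab27b stay between -0.05 and 0.02.

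With both markers the differences were larger. The 1003 cells high for CD61 and low for CD357 were set against the 673 cells low for CD61 and high for CD357, all of which are also in the comparisons above. Rasef had 143 fragments, or 13.6 CPM, against 54, or 7.60 CPM, a log2 ratio of 0.83 (0.37 to 1.31), the 19th highest of 20515 genes. Armh4 was at 14.5 against 10.1, a log2 ratio of 0.51 (0.10 to 0.94). Arhgap30 was at 28.4 against 37.5, a log2 ratio of -0.40 (-0.64 to -0.16), and Cyp11a1 at 13.1 against 16.9, a log2 ratio of -0.37 (-0.73 to -0.00). For Il17rb the log2 ratio was 0.30 (-0.09 to 0.71), and its interval held 0. Il15 at 0.02 and Rab27b at -0.04 did not detectably differ. In the 11 alternatives run Rasef was at 0.34 to 2.19 and Arhgap30 at -0.68 to -0.40, but with at least 50 tags Armh4 was at -0.14, and between the lowest and highest steps of tags Cyp11a1 was at 0.0084. Here 5 of 7 members were past the fold, in groups of fewer cells in which 12.0% of genes with at least 200 fragments and 11.7% of those with 400 to 2200 were. All of these members but Arhgap30 lay near the low end of that range, at 420 to 618 fragments over all cells, so these shares are not matched to their counts.

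Cells divided by both markers at once gave 4 groups. Rasef was at 13.6 CPM with CD61 high and CD357 low, 10.8 with both high, 10.6 with both low and 7.60 with CD61 low and CD357 high. The groups with both markers high and both low stood between the other two and had overlapping intervals. Arhgap30 ran the other way, at 28.4, 35.0, 31.8 and 37.5 in the same order. Cyp11a1 was at 13.1 with CD61 high and CD357 low and between 16.6 and 18.5 in the remaining 3 groups.

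Finer steps of tag count showed where along the range the genes differed. Over 0 to 1, 2 to 3, 4 to 5 and 6 or more CD357 tags, Rasef was at 14.1, 9.53, 9.39 and 9.19 CPM. Thus the step lay between cells with 0 to 1 tags (12.1 to 16.3) and all cells with more. Arhgap30 stood at 25.9, 35.2, 33.4 and 38.9 over the same steps, again with the 0 to 1 group apart (23.1 to 28.9, against a lower bound of 29.3 or more in the others). Armh4 was at 13.7, 12.05, 11.98 and 9.72, with overlapping neighbours. By CD61, Rasef was at 7.16 with 0 to 1 tags, 11.0 with 2 to 3, 9.70 with 4 to 5 and 15.4 with 6 or more. Its lowest and highest groups did not overlap, with 5.38 to 9.35 and 12.9 to 18.2. For Il15 and Rab27b the 4 steps lay between 51.1 and 59.7 for either marker.

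**Figure D2:**
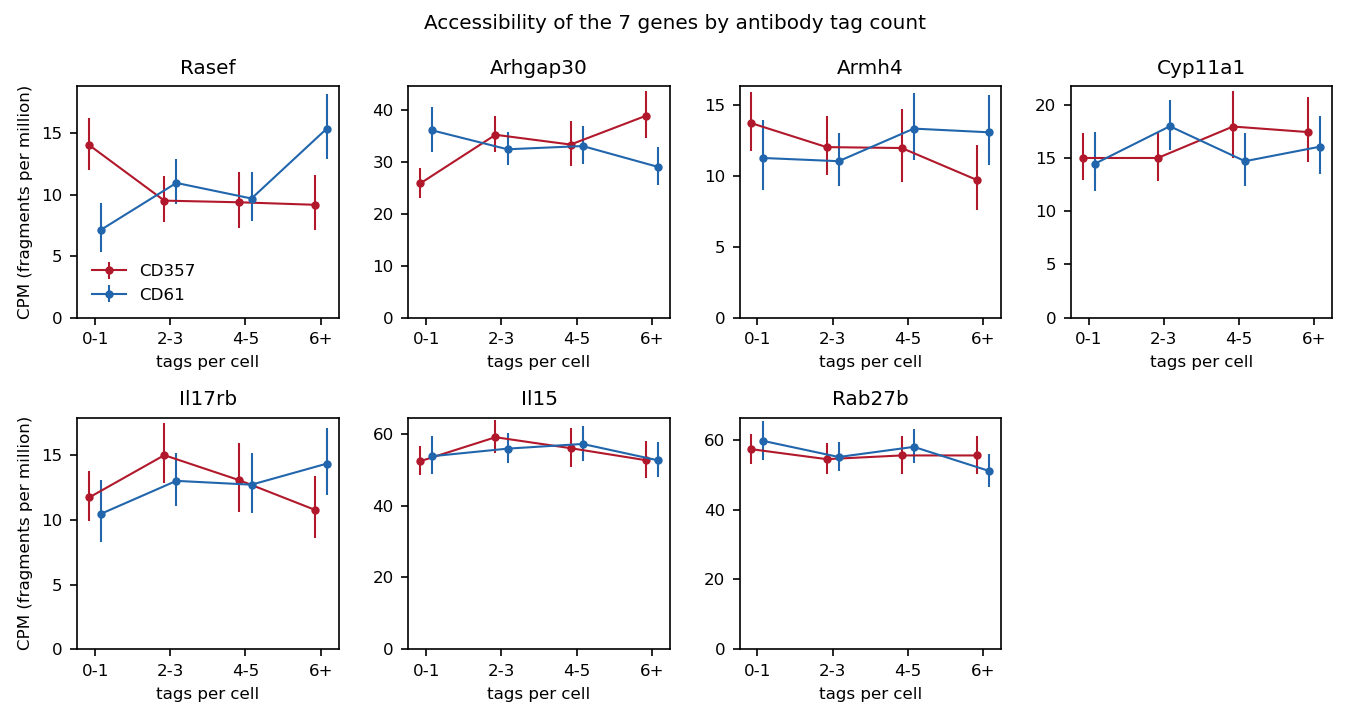
CPM (y axis, from 0) of each of the 7 genes in cells with 0 to 1, 2 to 3, 4 to 5 and 6 or more tags (x axis) of CD357 (red) or CD61 (blue). Points are values over all cells of a step and bars are exact Poisson 95% intervals. Rasef goes from 14.1 to 9.19 over CD357 and reaches 15.4 with 6 or more CD61 tags, while Arhgap30 goes from 25.9 to 38.9 over CD357.

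Depth of the groups was close, but other properties moved with the antibody counts. Median fragments were 10333 in CD357-high and 10258 in CD357-low cells, 10296 and 10268.5 by CD61, and 10211 and 10158 by both. Median tags were 35 against 26 by CD357 and 33 against 25 by CD61, and 30 in both groups of the joint comparison. Cells with excess overlaps made up 10.8% of CD357-high and 5.57% of CD357-low cells, and 10.1% and 5.27% by CD61, but 7.38% and 7.43% by both. Without those cells, Rasef was at 8.43 CPM in CD357-high and 11.8 in CD357-low cells, and Arhgap30 at 37.5 and 30.3. The median log2 ratio of all genes was -0.001 by CD357, 0.0002 by CD61 and 0.001 by both.

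The summed accessibility of the marker lists differed little by CD357 or CD61, while single markers differed more by both. HSC markers summed to 1152 CPM in CD357-high and 1129 in CD357-low cells, and to 1143 and 1133 by CD61. The megakaryocyte list stood at 458 and 476 by CD357 and at 474 and 465 by CD61, and the erythroid list at 158 and 152 by CD357 and at 154 and 155 by CD61. The myeloid, mast cell, B cell and T cell lists were at 105 and 103, 54.9 and 49.6, 181 and 183, and 658 and 657 by CD357, and at 100.4 and 107, 52.1 and 51.2, 183 and 182, and 662 and 654 by CD61. Of the 41 tested markers, those past the fold by CD357 included Ly6a (0.25) in one direction and Tubb1 (-0.26) in the other, and by CD61 they were Epor (-0.29) and Cebpe (-0.40). By both markers the lists stood at 1129 and 1139 for HSCs, 491 and 466 for megakaryocytes, 149 and 156 for erythroid, 97.6 and 105 for myeloid, 50.3 and 55.2 for mast, 186 and 183 for B and 666 and 661 for T cells, with 3 markers past the fold upward and 6 downward. These 9 of 41 are 21.95% of the markers tested, against 12.0% of all genes. Their part in the members' differences was not tested.

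Other antibodies of the panel were compared after the data had been seen. By CD274 (PD-L1), Arhgap30 stood at 36.4 against 29.0 CPM, a log2 ratio of 0.33 (0.17 to 0.49), and Armh4 at 10.4 against 13.7, a log2 ratio of -0.40 (-0.67 to -0.13). These 2 of 7 members were past the fold, against 3.91% of genes with 400 to 2200 fragments. High CD274 belongs to the mark of platelet-biased HSCs, and these directions are opposite to those in cells high for CD61 and low for CD357, where Arhgap30 was at -0.40 and Armh4 at 0.51. CD274 was divided by its raw count only. Its mean was 11.8 to 23.0 tags in the chromatin clusters described below, beside a median of 29 tags in all per cell. The part of total tags in these directions was not tested. By P2X7R, an ATP-gated ion channel, Rasef was at 8.82 against 12.2, a log2 ratio of -0.46 (-0.77 to -0.16), the only member past the fold (2.73% of those genes). By MERTK, a receptor for dying cells, the one member past the fold was Cyp11a1 at 13.1 against 18.1, a log2 ratio of -0.46 (-0.71 to -0.22), where 2.24% were. No member was past the fold by CD27 (4.38%), with log2 ratios from -0.23 for Armh4 to 0.07 for Il17rb. Il15 and Rab27b were past the fold by none of these antibodies.

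Read from the gene to the protein, cells open at Rasef carried a mean of 4.32 CD61 tags (4.11 to 4.54), and other cells 3.70 (3.64 to 3.77). For CD357 the means were 2.87 (2.70 to 3.05) and 3.30 (3.23 to 3.36), at a median of 29 tags in all in either set. Cells open at Arhgap30 had a mean of 3.62 CD357 tags (3.50 to 3.74) against 3.12 (3.06 to 3.19), with a median of 31 tags in all against 28. Open cells were also deeper, with medians of 10952.5 against 10213 fragments for Rasef and 10985.5 against 10037 for Arhgap30. The intervals of these means are of summed tags and do not cover the spread between cells. The tags and openings are the same counts as above in another order and not a second measurement.

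Which open sites carried these differences was asked with 500 bp sites that had at least 100 fragments. At Arhgap30 (chr1:171388954-171410298, plus strand), 2 sites held the difference by CD357. The promoter site, centred at -78 bp from the gene start, had 187 fragments in CD357-high and 208 in CD357-low cells, a log2 ratio of 0.52 (0.22 to 0.81). The second, 1422 bp after the start, had 215 and 253, a log2 ratio of 0.44 (0.17 to 0.70). It lies in an exon of the annotation and holds the Arhgap30 site printed above, while the promoter site holds the printed promoter. They made 64.6% and 64.3% of the gene's summed excess, and together more than all of it, because the 390 fragments elsewhere in the gene were at -0.24 (-0.56 to 0.06).

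The sites around Arhgap30 did not share this. Its 9 open sites with at least 100 fragments within 50 kb outside the gene had log2 ratios by CD357 from -0.12 to 0.13. A further site there, of 73 fragments, was at -0.26 (-1.03 to 0.46). Its 10 neighbouring genes, whose starts lie within 100 kb, ran from -0.12 for Usf1, a transcription factor gene that shares counted bases with it, to 0.10 for Nit1. By CD61 the promoter site was at 0.02 (-0.27 to 0.31) and the second at -0.04 (-0.31 to 0.23), and the fragments elsewhere in the gene at -0.35 (-0.65 to -0.05). By both markers together the sites were at -0.54 (-0.98 to -0.10) and -0.52 (-0.91 to -0.13). Both sites were covered in 63 cells against 44.6 expected from depth, a ratio of 1.41 (1.09 to 1.81).

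At Rasef (chr4:73714579-73790994, minus strand) the site with most fragments lay in an intron, 2468 bp after the gene start, and is the Rasef site printed above. It had 192 fragments, with a log2 ratio of -0.22 (-0.68 to 0.21) by CD357, 0.20 (-0.22 to 0.63) by CD61 and 0.52 (-0.15 to 1.25) by both. Its interval held 0 in each comparison. A site over the start, in a coding exon, had 88 fragments, fewer than the minimum, at -0.57 (-1.30 to 0.10), 0.27 (-0.36 to 0.91) and 1.18 (0.07 to 2.58). Fragments outside both sites, 140 in all, were at -0.40, 0.68 (0.18 to 1.198) and 0.99 (0.24 to 1.85). So no single site carried the Rasef difference: the intron site made 29.4% of the summed difference by CD357 and the start site 33.1%. No open site was found within 50 kb outside the gene.

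At Armh4 (chr14:49675952-49783383, minus strand) the promoter site was the one site with at least 100 fragments. It had 76 fragments in CD357-high and 152 in CD357-low cells, a log2 ratio of -0.32 (-0.75 to 0.08), and made 62.4% of the summed difference. By CD61 it was at 0.37 (-0.02 to 0.76) and by both at 0.69 (0.11 to 1.34), while the 192 fragments outside the open sites were at -0.01 and 0.12. A site in an intron, 49307 bp after the start, had 31 fragments, fewer than the minimum. It was at -0.16 (-1.40 to 0.94) by CD357, 1.39 (0.26 to 2.74) by CD61, where it made 36.2% of the summed difference beside 72.9% at the promoter, and 1.48 (-0.19 to 4.09) by both.

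At Cyp11a1 (chr9:58006411-58027023, plus strand) few fragments lay at the annotated start of the gene: 20 of 618, or 3.24%, fell within 1 kb of it. The one site in the gene lay 8215 bp inside the annotated gene, which is -326 bp from one of the 2 starts that RefSeq gives, at position 58014952, and 16602 bp after the other, at 57998024. It had 118 fragments in CD357-high and 155 in CD357-low cells, a log2 ratio of 0.28 (-0.08 to 0.63), with -0.10 by CD61 and -0.40 (-0.94 to 0.14) by both. A site with more fragments, 491, lay before the annotated start, 502 bp after the RefSeq start at 57998024, and was at -0.10 by CD357, 0.02 by CD61 and 0.10 by both. It also lies in Gm17322, a gene that shares counted bases with Cyp11a1. Gm17322 was at -0.14 by CD357, 0.02 by CD61 and 0.15 by both. Of the 10 flanking sites with at least 100 fragments, 4 had an interval that left out 0 in some comparison. A site centred at -25635 bp from the annotated start was at 0.46 (0.06 to 0.86) by CD357. One at -10885 bp stood at 0.58 (0.16 to 1.01) by CD61 and 0.69 (0.06 to 1.38) by both, one at -37885 bp at 1.06 (0.09 to 2.23) by both, and one at 32265 bp at 0.35 (0.02 to 0.68) by CD61. These last 3 stood opposite in direction to the site in the gene in those comparisons.

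At Il17rb (chr14:29996135-30008896, minus strand) the promoter site held 241 of 491 fragments and was at 0.00 (-0.39 to 0.38) by CD357, 0.13 by CD61 and 0.17 by both. This promoter lies between Il17rb and Chdh, a choline oxidation gene that starts at -127 bp on the other strand and was at -0.04 by CD357 and 0.03 by CD61. Il15 (chr8:82331632-82403222, minus strand) had 3 sites of 331 to 348 fragments, with log2 ratios from -0.10 to 0.07 by CD357, and 1 of them, in an intron 15446 bp after the start, was at 0.26 (-0.05 to 0.57) by CD61. Its other sites had fewer fragments than the minimum. Of these, an intron site of 47 fragments, 51746 bp after the start, was at 0.73 (-0.16 to 1.62) by CD357. It was at -0.92 (-1.94 to -0.02) by CD61 and -1.53 (-2.91 to -0.34) by both. The intervals of the remaining small sites held 0 in each comparison. Rab27b (chr18:69979131-70141605, minus strand) had 3 sites of 128 to 460 fragments deep inside the gene. The largest, of 460 fragments 88179 bp after the start, lies in an untranslated region of the annotation. It was at -0.21 (-0.49 to 0.07) by CD357 and -0.30 (-0.57 to -0.03) by CD61, or -0.20 (-0.44 to 0.03) by CD61 with sites of 1000 bp.

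**Figure D3:**
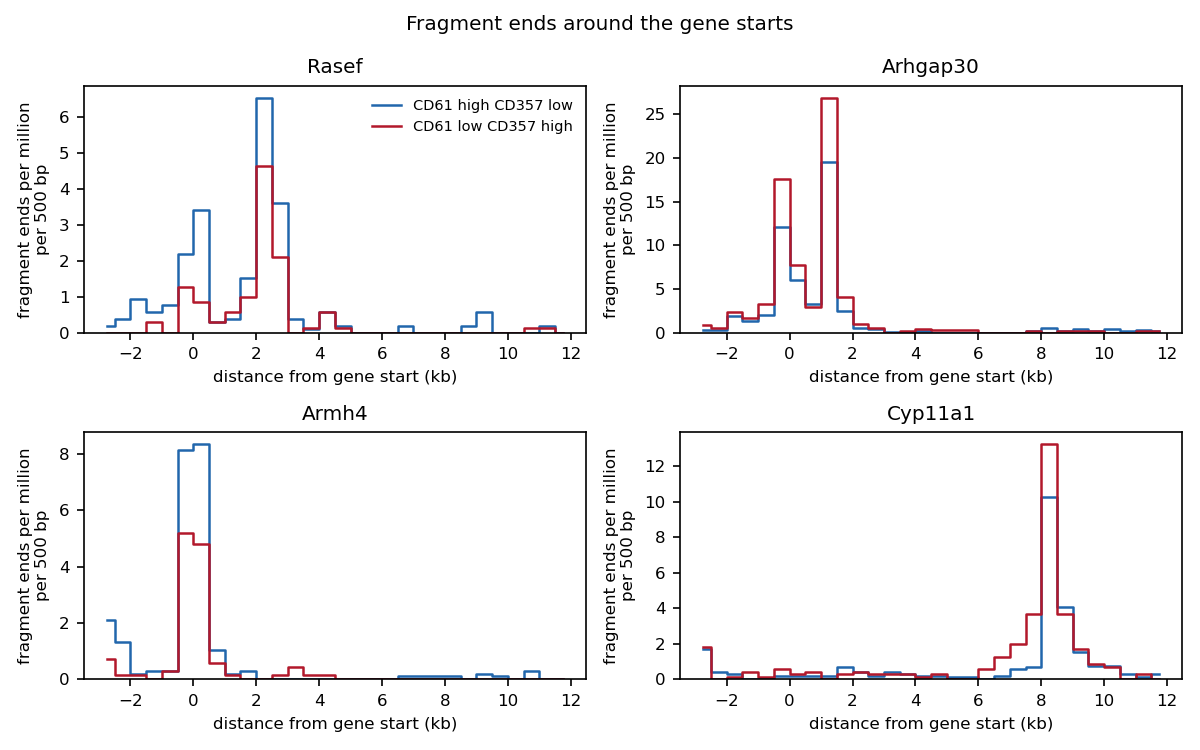
Fragment ends per 1000000 nuclear fragments in 500 bp steps (y axis, from 0) against the distance from the gene start in kb (x axis, along the direction of transcription) for Rasef, Arhgap30, Armh4 and Cyp11a1, in cells high for CD61 and low for CD357 (blue, 1003 cells) and the opposite (red, 673 cells). Blue stands above red at both Rasef peaks and at the Armh4 promoter, and red above blue at both Arhgap30 peaks and at the Cyp11a1 peak, which lies 8215 bp inside the gene.

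Single sites vary more than genes at these counts. Of the 12 sites inside members with at least 100 fragments, 3 were past the fold upward and 1 downward by CD357, where 22.5% of all 48489 such sites in the genome were. By CD61 it was 2 and 1 (21.4%), and by both 3 and 3 (38.5%). Of the 22 sites within 50 kb outside, 1 and 1 were past the fold by CD357, 6 and 0 by CD61, and 7 and 2 by both. These counts are small, and read against the background they are no result about the members. Among the 12 sites, the interval by CD357 left out 0 at the 2 Arhgap30 sites only.

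Cells were also grouped again on chromatin, by 5 kb windows over the whole genome, which gave 4 clusters of 1800, 1323, 264 and 237 cells, with 5 cells in none. This is the kind of contrast that chose the members, so the values describe how they vary. Cluster 1 was higher in Arhgap30, at 37.4 CPM (log2 ratio over other cells 0.49), in Cyp11a1 at 18.6 (0.54) and in Il17rb at 14.0 (0.31), and lower in Rasef at 8.57 (-0.67) and Armh4 at 11.1 (-0.27). Cluster 2 was the reverse, with Rasef at 16.5 (0.96) and Armh4 at 14.1 (0.32), and with Arhgap30 at 23.8 (-0.60), Cyp11a1 at 14.1 (-0.26) and Il17rb at 11.2 (-0.26). The interval held 0 for Armh4 in cluster 1 (-0.54 to 0.002). In cluster 2 it held 0 for Cyp11a1 (-0.53 to 0.001) and Il17rb (-0.57 to 0.03).

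Il15 and Rab27b varied in another group. In cluster 4 they stood at 80.4 (0.59) and 78.0 (0.53) CPM, against 49.3 to 54.4 for Il15 and 51.7 to 66.2 for Rab27b in the other clusters. Armh4 at 8.12 (-0.57, interval -1.33 to 0.04) and Il17rb at 8.94 (-0.51, -1.23 to 0.07) had 20 and 22 fragments there, and both intervals held 0. Cluster 3 was led by Gata1, the erythroid and megakaryocytic transcription factor, Sla, an adaptor of antigen receptor signalling, and 3 genes known for the cell cycle and DNA replication (E2f8, Ccne2 and Mcm6), and 15.9% of its cells had excess overlaps. It was low in Rasef at 5.23 (-1.07) and Cyp11a1 at 7.39 (-1.16), with Armh4 at 14.8 (0.33, interval -0.14 to 0.75) and Rab27b at 66.2 (0.27). Past the fold were 5 of 7 members in cluster 1, 5 in cluster 2, 4 in cluster 3 and 4 in cluster 4, beside 7.84%, 10.4%, 30.4% and 28.8% of genes with at least 200 fragments. These counts go by the size of the ratio alone and include members whose interval held 0.

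The clusters differed in depth and overlaps. Median fragments were 11334.5, 8547, 11462 and 10387 in clusters 1 to 4, and cells with excess overlaps made up 11.6%, 0.907%, 15.9% and 2.95%. Mean CD61 counts were 3.78, 4.01, 2.59 and 3.58, and mean CD357 counts 3.63, 2.70, 3.36 and 3.31. Cluster 2, the Rasef-high one, thus had the highest mean CD61 count, the lowest mean CD357 count and the fewest fragments per cell. The part of depth in these clusters was not tested. The graph that defined them was chosen after other graphs had been tried on these data, and in 4 of 5 other clusterings the highest log2 ratio of Arhgap30 in any cluster was 0.05 to 0.24, under the fold. In those 4 clusterings Rasef and Cyp11a1 were highest in the same cluster, of 2226 to 3177 cells, and in 3 of them Arhgap30 was highest there too. The opposite directions described for clusters 1 and 2 thus depend on the clustering.

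Whether members opened in the same cells was described for all 21 pairs, as cells open at both over the number expected from each cell's depth. Rasef and Armh4 were both open in 58 cells against 42.4 expected, a ratio of 1.37 (1.04 to 1.77), the one pair whose interval left out 1. This interval held 1 with at least 20 tags (1.34, 0.97 to 1.81) and with promoters only (1.13, 0.49 to 2.23), and with at least 50 tags the ratio was under 1 (0.66, 0.14 to 1.94). Rasef was open together with Arhgap30 in 85 cells against 101 expected (0.84, 0.67 to 1.04), with Il17rb in 37 against 44.0 (0.84, 0.59 to 1.16) and with Cyp11a1 in 44 against 49.3 (0.89, 0.65 to 1.198). Arhgap30 and Armh4 were at 0.91 (0.74 to 1.098), and these 5 pairs were past a fold of 1.1 in either direction. Arhgap30 and Cyp11a1 were at 1.097 (0.93 to 1.29), just under it. Il15 and Rab27b, both highest in cluster 4, were open together in 659 cells against 637, a ratio of 1.03 (0.96 to 1.12).

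How often any gene on another chromosome was past that fold differed between the members, and the part of the number of open cells in this was not tested. With Rasef it was 24.6% of genes with at least 200 fragments, with Armh4 25.4%, with Il17rb 21.0%, with Cyp11a1 19.2%, with Arhgap30 7.86%, with Il15 3.47% and with Rab27b 3.24%. The members were chosen because they varied between groups of these same cells, so their own counts are a description and nothing is read from them against these shares. Rasef was past it with 4 of its 6 partners in the list, Armh4 and Arhgap30 with 2 each, Il17rb and Cyp11a1 with 1, and Il15 and Rab27b with none. All pairs share the same cells and their depth.

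**Figure D4:**
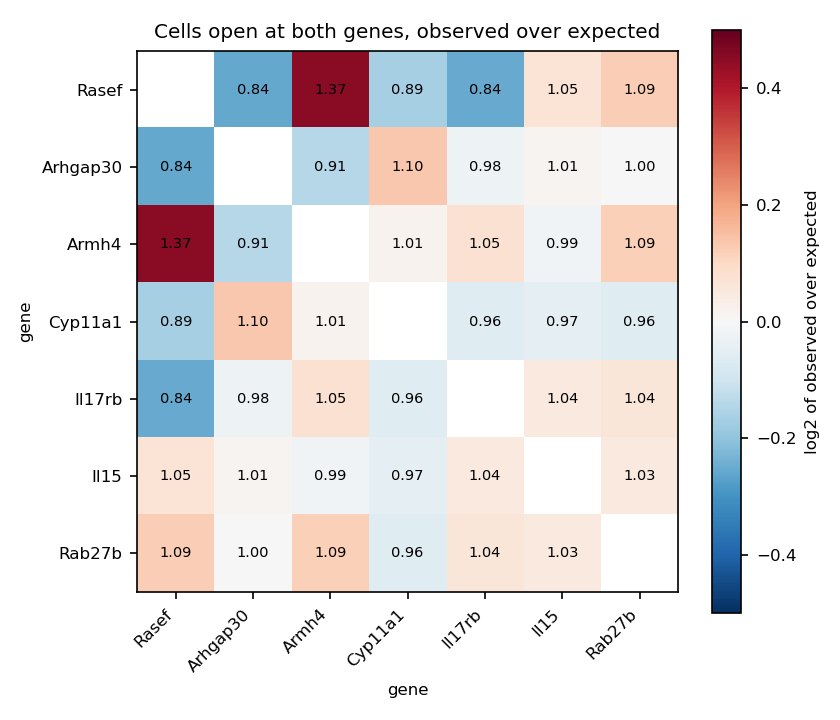
Cells open at both genes over the number expected from depth, for the 21 pairs of the 7 genes (both axes list the genes). Numbers are the ratios and the colour is their log2, red above and blue below 1. Rasef and Armh4 at 1.37 stand out above 1, and Rasef with Arhgap30 and with Il17rb, both at 0.84, are lowest.

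The genes most like each member were taken as the 3 on other chromosomes, with at least 500 fragments, whose co-opening ratio had the highest lower bound over the 3629 cells. For Rasef they were Zfp804a (73 cells against 44.2, ratio 1.65, 1.29 to 2.07), Prelp (1.47) and March4 (1.46). By both markers together Zfp804a was at 0.59, March4 at 0.41 and Prelp at -0.16. For Armh4 they were Crb2 (1.49), Opn1sw (1.4997) and Rasgrf2 (1.39), which by both markers stood at 0.16, -0.05 and 0.46. Arhgap30 had Cybc1 (1.19), Ssu2 (1.21) and Tmem161a (1.18), which by CD357 stood at 0.00, -0.13 and -0.09. Cyp11a1 had Cnr2 (1.28), Dclk1 (1.205) and Gm29328 (1.26), and Il17rb had Gm42601 (1.36), BC002059 (1.31) and Isoc2b (1.24). For Il15 the ratios of Ticam2, Chst3 and Gm15997 were 1.097 to 1.114 with intervals that held 1, and for Rab27b those of Gm8013, Gm26863 and Psmb10 were 1.14 to 1.19. They are the highest of many genes searched, so a ratio above 1 follows from the choice.

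Related genes of 4 kinds stood near the background, which was 4.30% of genes past the fold by CD357 and 3.67% by CD61, so these counts are no result about the related genes. Of 17 Rab GTPases and effectors of Rab27, none was past the fold by CD357 or by CD61, and Sytl1, a Rab27 effector, was highest by CD357 at 0.17. Of 8 steroid synthesis genes with enough fragments none was past it by either marker, with Cyp17a1, which makes androgen precursors, lowest by CD357 at -0.22. In the IL-15 receptor and signalling list 1 of 8 was past it by CD357, Il2rg, the common gamma chain, at 0.27, and none by CD61. None of 8 genes of the IL-17 receptor family was past it, with Traf6, an adaptor, at 0.23 by CD357.

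By both markers together, where 12.0% of all genes were past the fold, 1 of 17 Rab genes was, Sytl2 at -0.30. Of the steroid synthesis genes 1 of 8 was, Fdx1, the electron donor of Cyp11a1, at 0.29, where Cyp11a1 itself was at -0.37. Of the IL-15 list 1 of 8 was, Il2rg at -0.45, and of the IL-17 list none. The medians of these 4 lists lay between -0.09 and 0.13, against 0.00 over all genes. Of the HSC markers, Procr, which encodes CD201, was highest at 0.38 and Ly6a, which encodes Sca-1, lowest at -0.54.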

How the data were processed

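ATAC, RNA and antibody tags were measured in LT-HSCs of 1 pool, and the ATAC and antibody libraries were used here, joined by cell barcode. Per the submitters' processing notes, the authors ran Cell Ranger ARC 2.0.2 on mm10, and per the methods counted antibody tags with CITE-seq-Count. What they deposited are raw counts: 1 line per fragment after removal of duplicates, and antibody tag counts per cell. The RNA matrix was not used here.

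The members and lists, and the rule for the genes named, were chosen with earlier results of these data known. Named were the 7 members, their promoter and main sites, neighbours within 100 kb, related genes by list, and the 3 genes most like each. Kept cells had more than 3000 fragments and more than 15% of fragments in peak regions and at least 10 tags. No doublet caller was run. The values of 1 marker gene and of 1 list of related genes are not reported here. Genes came from GENCODE M21, and no fragment lay past the chromosome ends of the RefSeq build. Before log2 ratios were taken, 0.5 was added to either count, and they were scaled by all nuclear fragments. Intervals were exact conditional binomial, Poisson or binomial, take counts as independent and cover counting error only. Sites had at least 20 fragment ends within 150 bp and 3 times the local level. Clusters used 127462 windows, weighted by term frequency, 30 components without the first, which followed depth (correlation with log fragments 0.990, and 0.85 for the second), 20 neighbours, and Leiden at resolution 0.5. Other cell filters, counting windows, antibody scales and graphs were tried. The scripts were checked on simulated data. Leidenalg 0.10.2, igraph 0.11.9, scikit-learn 1.9.0, scipy 1.17.1 and numpy 2.4.6 were run under Python 3.11.15.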

Additional observations from a re-analysis of the deposited data

Results flagged for a closer look

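A signal at the members was seen in barcodes that entered no comparison. Barcodes not called as cells held 534 fragments at the 7 genes, or 191 CPM of their nuclear fragments, and called cells that were not kept held 457, or 194 CPM, against 195 CPM in kept cells. Single genes with few fragments there differed more. In barcodes not called, Cyp11a1 was at 10.4 CPM from 29 fragments, against 16.1 in kept cells, and Armh4 at 16.8 from 47, against 12.1, while Il15 was at 53.0 against 55.1. Rasef was at 17.0 CPM in called cells that were not kept, from 40 fragments, and at 10.9 in kept cells. How much of the fragments in kept cells came from free DNA was not tested.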

How the results depend on the processing

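No paired analysis was possible because all values come from 1 pool of cells. Of the members' values under the alternatives, 204 stayed within their interval and 27 moved outside it; 29 of the 231 had another sign than the main value, 6 of them where that value was 0.1 or more in size; of the pairs 130 stayed and 17 moved, and the 24 values of sites stayed, though the CD61 value of the largest Rab27b site went from -0.30 to -0.20, under the fold, with sites of 1000 bp. The number past the fold by CD357, 3 of 7, ran from 2 to 4 in the 11 alternatives, but not always with the same genes: with cells thinned to 6000 fragments it was Arhgap30 (0.26) and Cyp11a1 (0.43), and with at least 50 tags Il17rb (-0.75) was among the 4. By CD61 the number went from 1 to 2 with at least 20 tags, without cells of excess overlaps, without the deepest 5% of cells, with cells thinned to 6000 fragments, with the centred log ratio, with residuals on the other antibodies and with division above 2 tags, and to 3 with at least 50 tags, with promoters only and between the lowest and highest steps of tags. By both markers it went from 5 to 3 with the centred log ratio and to 6 with promoters only. It was 4 with at least 50 tags, with at least 20 tags, without the deepest 5% of cells and between the lowest and highest steps of tags. With at least 50 tags, which left 363 cells, Rasef by CD61 was at -0.10, Armh4 by CD61 at -0.56 and Armh4 by both markers at -0.14, against the main sign. Between the extreme steps Cyp11a1 was at 0.15 by CD61 and 0.0084 by both, and with the centred log ratio Il17rb was at 0.01 by CD357, also against it. The cause was not tested. Between the lowest and highest steps the Rasef ratio was 1.095 by CD61 and 2.19 by both, and Arhgap30 by CD357 was at 0.59, or 0.43 with division above 2 tags, which was added after seeing the data. Sites inside members past the fold went from 4 to 10 by CD357 and from 3 to 12 by CD61 with a minimum of 30 fragments, where more sites with few fragments enter and 37.3% and 36.4% of all sites are past it. Pairs past the fold went from 5 to 13 with at least 50 tags, 8 with at least 20 tags and 17 with promoters only, all with fewer open cells per pair.

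Counts limit most values here: the members' intervals by CD357 and by CD61 are all wider than their differences. Only those of Rasef, Arhgap30 and Cyp11a1 by CD357 and of Rasef by CD61 left out 0. No replicate pool gives the spread between animals.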

Other observations

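The groups that carried Il15 and Rab27b were small but were seen in each of the 6 clusterings run: the cluster highest for Il15 held 228 to 325 cells, with a log2 ratio over other cells from 0.39 to 0.63, and Rab27b was highest in the same cluster at 0.38 to 0.56. All these clusterings use the cells and fragments on which the members were chosen, so their recurrence is a description and no separate support. Arhgap30 differed more between settings: its highest log2 ratio was 0.49 in the clusters described above and 0.64 with components 3 to 30, but 0.05 to 0.24 in the other 4, in which 1 cluster held 2226 to 3177 cells. In those 4, Rasef and Cyp11a1 were highest in the same cluster. With components 3 to 30, Rasef was at 1.198 and Arhgap30 at -0.68 in 1 cluster of 1671 cells. The cause of these differences was not tested.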
